A study of Mus musculus with 2 samples.

Results

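The cells described here carried haemoglobin messenger RNA together with a broad set of other transcripts. A cell was taken when it had at least 200 detected genes, at most 20% of its unique molecular identifiers (UMIs, each standing for 1 captured RNA molecule) from mitochondrial genes, at least 5% of its UMIs from the adult globin genes Hba-a1, Hba-a2, Hbb-bs and Hbb-bt, and at most 2% from the collagen gene Col1a1. The rule found 1732 of 19015 deposited cells, 684 in the Lipo-Clo library and 1048 in the Lipo-PBS library. They are called globin-high cells below, because the genes that the rule did not use went partly against the label of erythroid cells.

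Mandibular first molars with their surrounding tissue were taken from C57BL/6J mice at PN15.5 (PN, postnatal day), dissociated with dispase and collagenase and sequenced as single cells. The Lipo-Clo mice had received clodronate liposomes, which macrophages engulf and which kill them, at 40 µg per g of body weight injected into the peritoneum several times from PN3.5 on, and the Lipo-PBS mice had received vehicle liposomes. Each condition is 1 library, the number of mice in a library is not given in the sources used here, and both libraries carry the same batch label. The Lipo-Clo library held 31053404 UMIs in 9362 cells and the Lipo-PBS library 30537834 UMIs in 9653 cells. With 1 library per condition no test between the conditions exists, and every interval below is a 95% interval that covers counting error only.

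Red cells form in the marrow from progenitors that divide several times while they load haemoglobin, then stop dividing, condense and expel their nucleus, and leave as reticulocytes that clear their mitochondria and ribosomes. Erythroblasts mature around a central macrophage in a structure called the erythroblastic island, and macrophages also remove the expelled nuclei and worn-out red cells. Reticulocytes and red cells hold large amounts of globin RNA, and when they break, that RNA can enter the droplets of other cells.

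The libraries differed before any erythroid gene was considered. Mitochondrial genes took 0.358% of all UMIs in Lipo-Clo and 1.65% in Lipo-PBS, and the same direction was seen within the globin-high cells, at 0.216% and 1.20%. The limits on genes and mitochondrial UMIs left 8886 Lipo-Clo and 8894 Lipo-PBS cells, called filtered cells below. At least 3 of 11 neutrophil genes were found in 20.9% of the filtered Lipo-Clo cells (20.1 to 21.8, exact Clopper-Pearson interval) and in 5.46% of those of Lipo-PBS (5.00 to 5.96). Cells with at least 3 of 13 genes of the macrophage side of the island were 3.06% (2.71 to 3.44) and 4.68% (4.25 to 5.14). Cells with at least 3 of 9 B cell genes found in the files were 8.32% and 5.91%, and with at least 3 of 9 mesenchymal genes 81.9% and 89.6%. Neutrophil and B cell signal was thus more frequent in the Lipo-Clo library, and the part of the marrow content of the dissected tissue in the erythroid values was not tested. The libraries shared 30 cell barcodes, of which 0 belonged to globin-high cells in both.

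The label was checked with a core list of 18 erythroid genes without a globin, among them the haemoglobin chaperone Ahsp, the first enzyme of erythroid haem synthesis Alas2, the membrane protein Slc4a1, and the transcription factors Klf1 and Gata1. Cells with at least 3 of the 18 are called core-positive. They were 451 of 684 Lipo-Clo cells (65.9%, 62.2 to 69.5) and 311 of 1048 Lipo-PBS cells (29.7%, 26.9 to 32.5), and the median cell held 5 and 1 core genes. The globin-high cells of Lipo-PBS therefore mostly lacked the other genes of the erythroid programme at this depth. The median globin-high cell held 1621 UMIs other than haemoglobin in Lipo-Clo and 1983 in Lipo-PBS. After each cell was thinned to 500 UMIs, which left out no cell, the shares were 38.9% and 12.3%. Near the limit lay 54 and 149 cells with 2 core genes and 45 and 78 cells with 3.

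**Figure D1:**
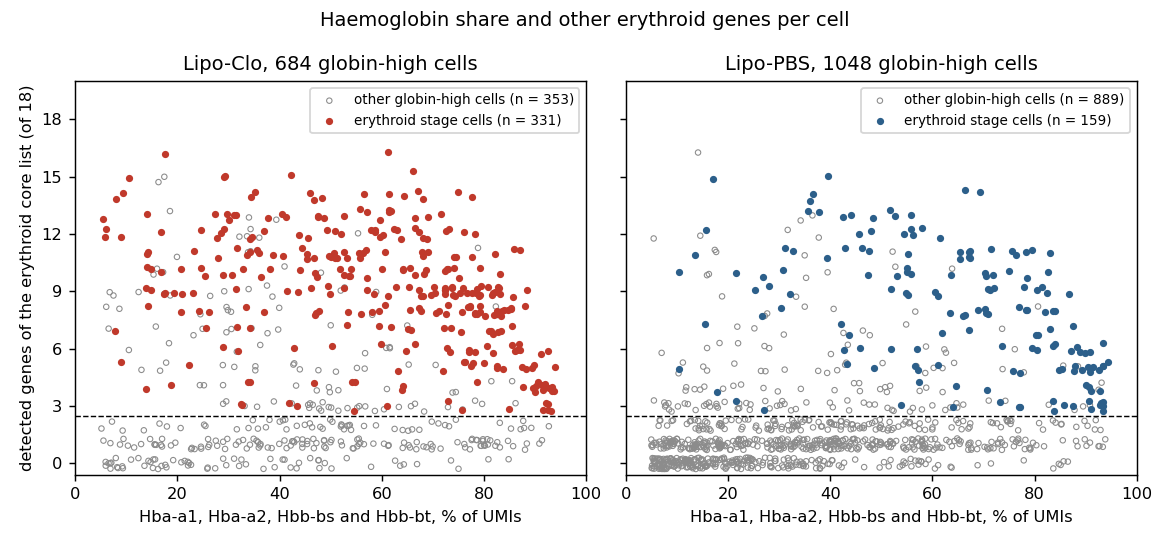
Each point is 1 globin-high cell, with the share of its UMIs from the 4 globins (%) on the horizontal axis and the number of detected genes of the 18-gene core list, spread slightly for visibility, on the vertical axis. Filled points are the 331 Lipo-Clo and 159 Lipo-PBS cells of the erythroid stage clusters, the dashed line parts cells with under 3 core genes, and the Lipo-PBS panel holds 737 cells under it against 233 in Lipo-Clo.

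The core-positive share was higher at higher globin shares in both libraries. Of cells with 5 to 10% globin, 13 of 31 in Lipo-Clo and 9 of 107 in Lipo-PBS passed the core limit, and of those with 75% or more, 109 of 144 and 75 of 121 did. The median globin share, a description of what the rule selected, was 51.5% for Lipo-Clo and 35.3% for Lipo-PBS. Just inside the 5% limit, at 5 to 6%, lay 6 and 22 cells, and just outside it, at 4 to 5%, 6 and 25. Just inside the Col1a1 limit, at 1.5 to 2%, lay 32 and 163 cells, and just outside, at 2 to 2.5%, 25 and 136. The Col1a1 limit kept out 130 Lipo-Clo and 592 Lipo-PBS cells whose globin share passed, and 45 and 114 of these held at least 3 core genes. In cells over the Col1a1 limit, a mesenchymal set that does not make haemoglobin, the median globin share was 0.169% and 0.280%, while 10% of these cells lay above 0.393% in Lipo-Clo and above 14.2% in Lipo-PBS.

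When all globin-high cells were clustered without their haemoglobin genes, 15 clusters formed, and 2 of them were led by erythroid signal. The first of these, with 125 Lipo-Clo and 61 Lipo-PBS cells, was led by Tmcc2, the nuclear exporter Xpo7, Slfn14 and the interferon-induced gene Isg15, and 97.3% of its cells passed the core limit. The second, with 127 and 50 cells, was led by replication-dependent histone genes such as H2bc3 and H2bc15, and 97.2% passed. A mixed cluster of 101 and 126 cells was led by Xpo7, Tmcc2, Marchf3, Adipor1 and the basement membrane collagen Col4a1, and 52.9% passed. The other 12 clusters were led by genes of other lineages or by genes outside the lists. Smooth muscle genes Myh11 and Acta2 led 46 Lipo-Clo and 152 Lipo-PBS cells, the matrix genes Clec3b and Eln led 31 and 126, Pf4 and the complement gene C1qa led 40 and 104, the ameloblast genes Odam and Amtn led 44 and 71, and the claudin gene Cldn19 led 9 and 38. Core-positive cells made up 31.8%, 20.4%, 20.8%, 27.0% and 14.9% of these clusters.

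The core-positive cells were therefore clustered again on their own, and 10 clusters formed. A cluster counted as an erythroid stage when its core list level was at least 1.5 times the summed level of 12 lists of other lineages, a limit set after the clusters were seen. This left 3 clusters with 331 Lipo-Clo and 159 Lipo-PBS cells, called erythroid stage cells. Their RNA also held genes of other lineages, and at least 3 mesenchymal genes were found in 53.8% and 67.3% of them. In CPM, the UMIs of a gene or list per 1e+06 UMIs other than haemoglobin, mesenchymal genes of the Lipo-Clo and Lipo-PBS cells stood at 8562 and 7925, against 36032 and 35852 for the core list, with Col1a1 highest at 3235 and 2870. Macrophage genes stood at 109 and 126 CPM with the island genes Siglec1 and Spic at 0, platelet genes at 19.8 and 62.9 with Ppbp and Gp6 at 0, and mast cell genes at 1 UMI in each library. Monocyte and dendritic cell genes stood at 890 and 1183 CPM with Cd74 highest, epithelial genes at 541 and 902 with Odam highest, and glial genes at 79.1 in Lipo-Clo against 1951 in Lipo-PBS. Over both libraries, Cd74 had 272 UMIs in the cluster called intermediate below, in 5.19% of its cells, against 27 and 5 UMIs in the others. Glial genes stood at 1791 CPM in that cluster and at 104 and 90.4 in the others. The 120 and 152 core-positive cells outside the stages lay in 7 clusters led by bone, matrix, enamel, perivascular, neutrophil, macrophage and B cell genes.

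Whether the erythroid share of the tissue differed between the libraries depended on which cells were counted. Globin-high cells made up 7.70% (7.15 to 8.27) of the filtered Lipo-Clo cells and 11.8% (11.12 to 12.47) of the Lipo-PBS cells, and the log2 ratio of Lipo-Clo over Lipo-PBS, which is the direction of all ratios below, was -0.61 (-0.76 to -0.47). Cells below the core limit were 2.62% and 8.29%, 3.16-fold more frequent in Lipo-PBS. Core-positive cells went the other way, at 5.08% (4.63 to 5.55) and 3.50% (3.12 to 3.90), and their log2 ratio was 0.54 (0.33 to 0.75). This ratio depended on the globin and Col1a1 limits of the rule. Among all filtered cells, those with at least 3 core genes were 5.98% (5.49 to 6.49) and 5.24% (4.79 to 5.72), with overlapping intervals. Erythroid stage cells were 3.72% (3.34 to 4.14) and 1.79% (1.52 to 2.09), 2.08-fold more frequent in Lipo-Clo, with a log2 ratio of 1.06 (0.78 to 1.34). This ratio was 1.06 with doublet calls left out (315 and 151 cells), 1.15 among cells with at least 500 UMIs other than haemoglobin, 1.18 for the erythroid clusters of the first clustering, 0.89 for cells with at least 5 core genes and 1.30 for those with at least 8. Cells with at least 3 neutrophil genes, which differed in the same direction among filtered cells, were 14.8% (11.2 to 19.1) of the Lipo-Clo and 1.26% (0.153 to 4.47) of the Lipo-PBS stage cells, and their part in the difference was not tested.

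**Figure D2:**
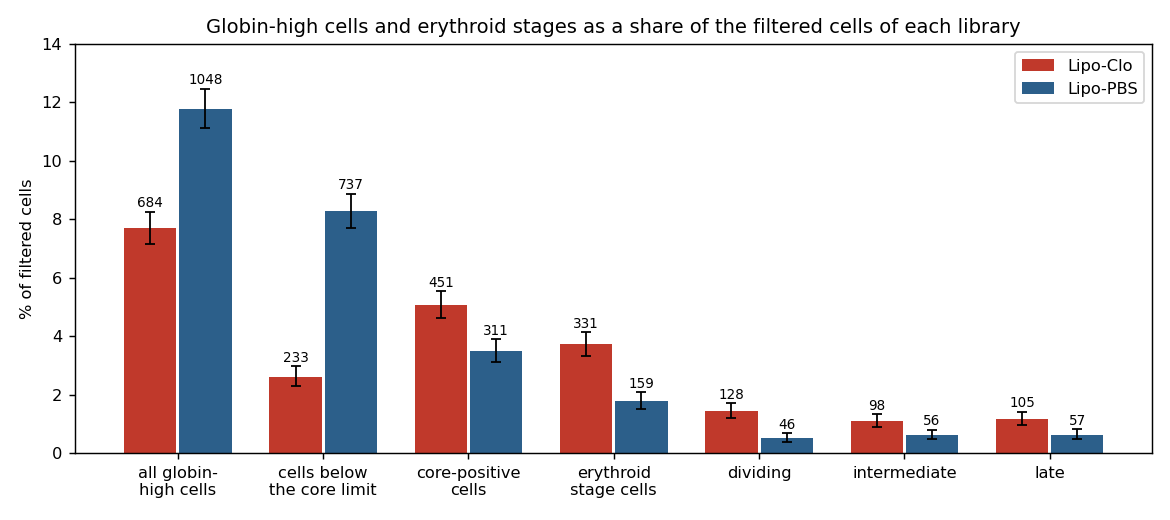
Bars give each set as a share of the filtered cells of its library (%), with 95% Clopper-Pearson intervals and the number of cells above each bar. All globin-high cells and the cells below the core limit were more frequent in Lipo-PBS, and core-positive cells and each erythroid stage in Lipo-Clo.

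The 3 stage clusters were ordered by the lists of dividing and of late erythroid genes. In the dividing stage, with 128 Lipo-Clo and 46 Lipo-PBS cells, histone genes H2ac15, H2bc15, H3c3, H4c12 and H2ac20 led, the median cell held 1001 and 1004 genes, and globin took 47.0% and 45.9% of the UMIs of the median cell but 40.3% and 46.2% of all UMIs of the stage. In the intermediate stage, with 98 and 56 cells, Prxl2a, the centromere histone Cenpa, Cdkn3, Tspo2 and the ubiquitin ligase Mkrn1 led, the median cell held 521 and 421 genes with 64.2% and 72.3% globin, and globin took 59.1% and 65.4% of all UMIs. In the late stage, with 105 and 57 cells, Xpo7, Slfn14, Tmcc2 and Tmem131l were among the leading genes, the median cell held 345 and 370 genes with 78.2% and 78.4% globin, and globin took 77.3% and 76.5% of all UMIs. Division genes with at least 3 UMIs over 10 mitotic genes were seen in 98.4% and 95.7% of dividing, 63.3% and 51.8% of intermediate, and 29.5% and 40.4% of late cells. The genes of these cells made the clusters, so the levels that follow describe the stages and test nothing.

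The summed level of DNA replication and mitosis genes was lower at each step of this order. The 26 genes of that list summed to 31202 CPM in Lipo-Clo and 29674 in Lipo-PBS in the dividing stage, 19671 and 14486 in the intermediate stage, and 7249 and 5807 in the late stage. Pcna, the sliding clamp of DNA polymerase, stood at 684 and 577 CPM, then 340 and 241, and had no UMI in late cells, where a count of 0 (3 counts over the total) allows up to 43.3 and 72.6 CPM. Top2a, the topoisomerase that untangles replicated chromosomes, stood at 673 and 974 CPM, then 161 and 197, and then at 5 UMIs in Lipo-Clo and 0 in Lipo-PBS. Single genes could differ from the sum, as Cenpa did at 787 and 899 CPM in dividing, 1071 and 865 in intermediate, and 650 and 121 in late cells. Nuclear-coded genes of oxidative phosphorylation stood at 26509 and 19704 CPM in dividing, 25916 and 25042 in intermediate, and 13964 and 13212 in late cells, so that they were highest in intermediate cells in Lipo-PBS, with Cox7c, a cytochrome oxidase subunit, at 1524 and 1088 in dividing and 361 and 460 in late cells. Tmem14c, a mitochondrial protein needed for porphyrin transport, went from 2264 and 1778 CPM in dividing to 130 and 169 in late cells.

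Haem synthesis and membrane genes went in both directions between dividing and late cells. Among those higher in late cells, Alas2 stood at 801 and 842 CPM in dividing, 1504 and 2343 in intermediate, and 4332 and 4041 in late cells. Fech, which inserts iron into the porphyrin ring in the last step of the pathway, stood at 524 and 681, 743 and 701, and 1993 and 2226. Ahsp stood at 18119 and 20196, 20191 and 15494, and 45559 and 35522 CPM. Slc4a1, the anion exchanger band 3, stood at 777 and 1031 in dividing and 2209 and 2202 in late cells, and Epb41, the skeletal protein 4.1, at 341 and 397 and then 2816 and 2952. Alad, the second enzyme of the pathway, stood at 939 and 851 CPM in dividing, 780 and 679 in intermediate, and 809 and 387 in late cells, lower in late cells beyond the intervals in Lipo-PBS alone, while Tmem14c, given above, was lower in both libraries. Of the membrane genes, Aqp1 was lower in late cells, at 318 CPM in dividing and 145 in late cells of both libraries together. CPM are shares of 1 total, so a gene's CPM also depends on the other genes.

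The summed level of genes of enucleation and of protein and organelle clearance was highest in late cells. The 16 genes of that list summed to 7566 and 8599 CPM in dividing, 17560 and 20706 in intermediate, and 54209 and 48880 in late cells. Xpo7, an exporter that removes histones and other proteins from the condensing nucleus, stood at 37.2 and 28.4 CPM in dividing, 68.1 and 32.8 in intermediate, and 4693 and 4840 in late cells, where it was detected in 99.0% and 100% of cells. Bnip3l, the receptor through which reticulocytes remove mitochondria, went from 258 and 303 to 1021 and 1314 and then 2773 and 2589 CPM. Ube2h, a ubiquitin-conjugating enzyme, went from 71.8 and 142 to 1964 and 1912, and Bpgm, which makes the 2,3-bisphosphoglycerate that loosens oxygen from haemoglobin, from 82.5 and 265 to 3148 and 3896. The nuclear RNA Malat1 was detected in 97.1% and 94.7% of late cells.

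The transcription factors went in both directions or differed little. Klf1 stood at 450 and 426 CPM in dividing, 291 and 339 in intermediate, and 549 and 484 in late cells, with overlapping Poisson intervals between dividing and late cells in each library. Gata1 gave 45 and 12, 15 and 6, and 13 and 4 UMIs, too few to order the stages. Foxo3, which acts late in maturation, went from 149 and 170 to 953 and 799 CPM, and Nfe2, a factor of globin gene control, from 47.9 and 56.8 to 375 and 387. Bcl11a, the repressor of embryonic globin genes, stood at 154 and 56.8 CPM in dividing and at 14.4 and 24.2 in late cells, on 58, 6, 1 and 1 UMIs, so that it was lower in late cells beyond the intervals in Lipo-Clo alone. Of the early progenitor genes, Epor was detected in 20.3% and 23.9% of dividing and 3.81% and 3.51% of late cells, the carbonic anhydrase Car1 in 24.2% and 21.7% of dividing and 1.90% and 0% of late cells, and the transferrin receptor Tfrc in 75.8% and 71.7% of dividing and 49.5% and 49.1% of late cells, while Kit, Gata2, Myb and Cd34 were each found in at most 5.36% of the cells of a stage.

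**Figure D3:**
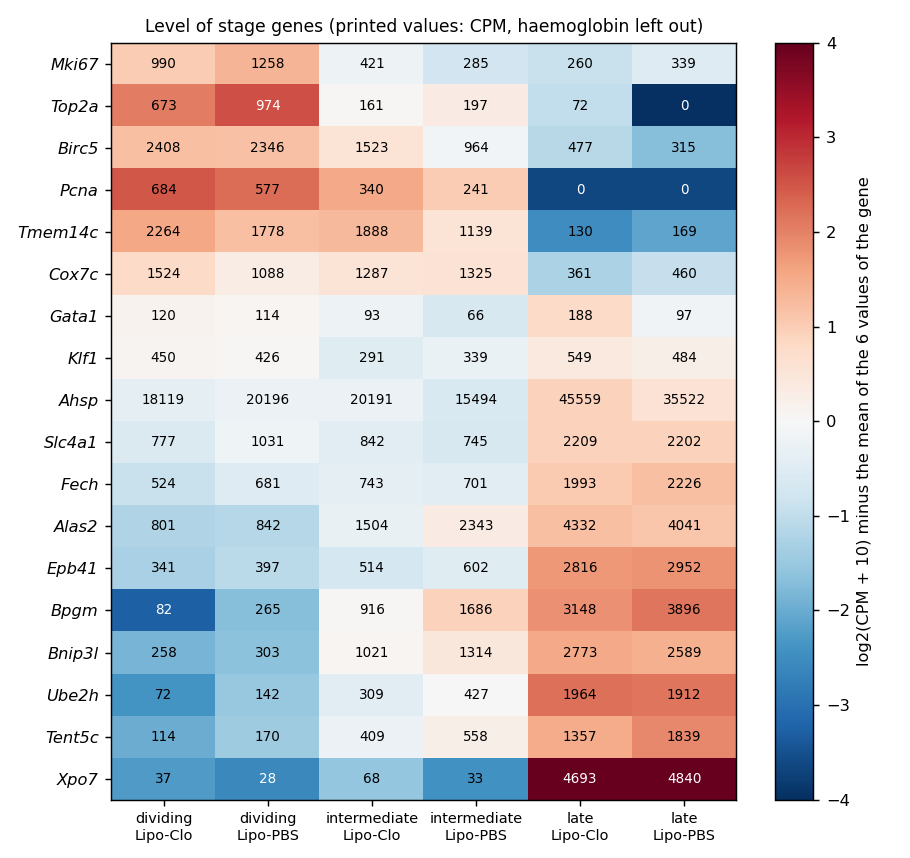
Each line is 1 of 18 genes and each column 1 of the 3 stages in 1 library. Printed values are CPM without haemoglobin and the colour is log2(CPM + 10) minus the mean of the gene's 6 values. Division genes at the top were highest in dividing cells, and Xpo7 stood at 4693 and 4840 CPM in late cells against at most 68.1 in the other stages.

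The globin chains were described next, since the rule used only their sum. The bases before the start sites of the 4 genes are shown because both chains come from duplicated genes, and the stretches show how alike the copies are. Each stretch is the 120 bases before the start site of the RNA in RefSeq on GRCm38.p6, 5′ to 3′ on the gene's strand, with the CACCC box, the CCAAT box and the TATA-box letters ATATAA, each searched on both strands, in capitals.
Hba-a1, chr11:32283552-32283671, plus strand: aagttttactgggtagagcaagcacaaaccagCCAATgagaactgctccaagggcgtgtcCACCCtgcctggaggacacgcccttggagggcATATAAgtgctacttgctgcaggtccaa
Hba-a2, chr11:32296372-32296491, plus strand: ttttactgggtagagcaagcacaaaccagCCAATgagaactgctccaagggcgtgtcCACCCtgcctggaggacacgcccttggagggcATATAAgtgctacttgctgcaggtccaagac
Hbb-bs, chr7:103827929-103828048, minus strand: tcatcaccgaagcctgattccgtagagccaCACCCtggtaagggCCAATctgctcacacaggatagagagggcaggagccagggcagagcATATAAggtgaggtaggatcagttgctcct
Hbb-bt, chr7:103813924-103814043, minus strand: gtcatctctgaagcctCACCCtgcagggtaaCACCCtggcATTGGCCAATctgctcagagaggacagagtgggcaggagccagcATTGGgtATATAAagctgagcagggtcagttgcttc
All 3 motifs stood in each of the 4 stretches and in 0.286% of 32851 stretches of the same length. The first motif was found in 31.7% of these, the second in 21.3% and the third in 4.47%. The 3 motifs were chosen by hand and no others were searched, so these shares are a description and test nothing. In Hbb-bt, 1 CCAAT box directly follows its reverse copy. The Hba-a1 and Hba-a2 stretches were identical over the 117 bases that overlap after a shift of 3 bases, and Hbb-bs and Hbb-bt matched at 88 of 119 bases after a shift of 1.

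The chains kept a near constant alpha share through the stages, while the use of the duplicated genes differed. Alpha globin took 27.5% of the 4-globin UMIs in Lipo-Clo and 25.8% in Lipo-PBS in dividing, 27.5% and 26.9% in intermediate, and 27.0% and 26.6% in late cells. The beta gene Hbb-bt took 19.2% and 16.5% of beta UMIs in dividing, 16.5% and 15.7% in intermediate, and 16.2% and 16.5% in late cells. Its higher share in dividing cells was thus clear only in Lipo-Clo. Hba-a2 took 28.3% and 31.9% of alpha UMIs in dividing, 39.1% and 41.0% in intermediate, and 40.3% and 41.2% in late cells. Since the alpha genes are near copies, how the counting split their reads is uncertain, and the order of the stages was the same in both libraries. The embryonic globins Hba-x, Hbb-bh1 and Hbb-bh2 had no UMI and Hbb-y had 1 among all globin-high cells.

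Cells below the core limit carried globin of another composition. Hbb-bt took 11.8% and 11.9% of their beta UMIs, below each erythroid stage, and Hba-a2 42.3% and 42.6% of their alpha UMIs. Haemoglobin-rich cells with under 200 genes, 468 in Lipo-Clo and 747 in Lipo-PBS with a median of 113 and 110 genes and 94.8% globin in both, had 13.03% and 12.88% Hbb-bt and 42.4% and 42.9% Hba-a2. Alas2 and Ahsp belong to the core list, so their contrast with the stages is partly fixed by the limit. Alas2 was detected in 60.9% and 49.7% of them and Ahsp in 9.44% and 10.9%, against 78.0% and 89.96% for Alas2 and 29.5% and 15.4% for Ahsp in the cells with under 200 genes. In mesenchymal cells over the Col1a1 limit, Alas2 was detected in 3.48% and 8.90% and Ahsp in 5.21% and 7.97%. At least 3 mesenchymal genes were found in 76.4% and 89.3% of the cells below the limit, against 81.9% and 89.6% of all filtered cells. At least 3 perivascular genes were found in 12 of 233 (5.15%) and 140 of 737 (18.996%), against 9.13% and 16.6% of the filtered cells. The part of free or engulfed red cell RNA in these cells was not tested.

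**Figure D4:**
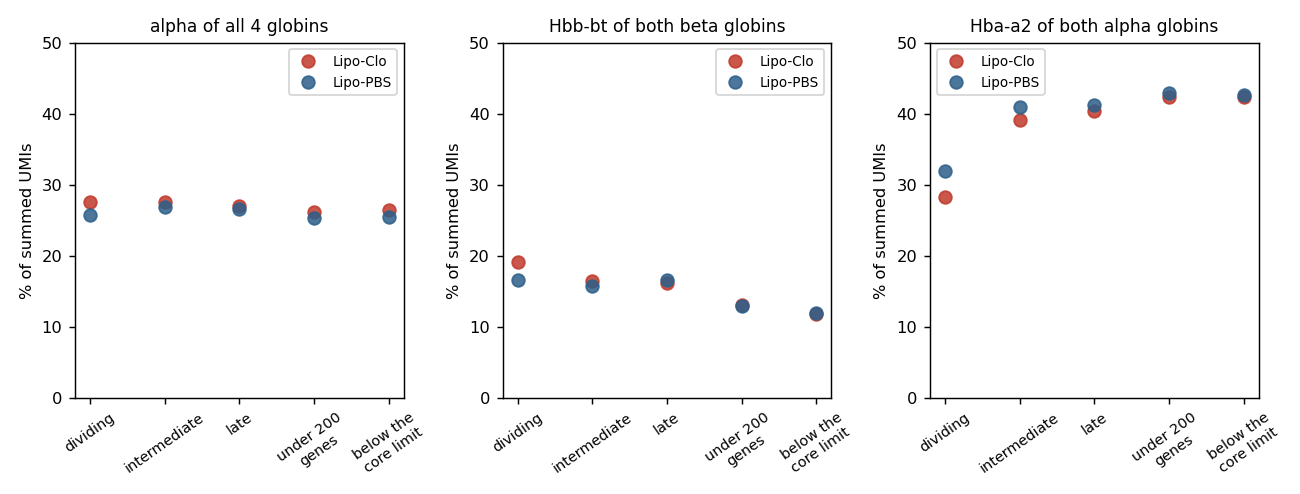
Points give, for each set and library, the alpha share of the UMIs of all 4 globins, the Hbb-bt share of beta UMIs and the Hba-a2 share of alpha UMIs (all %). The alpha share stays between 25.3% and 27.5%, while cells with under 200 genes and cells below the core limit have the lowest Hbb-bt and the highest Hba-a2 shares.

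Over all globin-high cells, the erythroid core and division lists had median ratios above 0, and the mesenchymal and perivascular lists had medians below 0. Genes were counted as in use when at least 10% of the cells of 1 library held a UMI of them. Of 3809 such genes, 257 (6.75%) were at least 2-fold higher and 303 (7.95%) at least 2-fold lower in Lipo-Clo, by CPM without haemoglobin, so that 54.1% of them were lower, against 73.2% by CPM over all UMIs. Of the 18 core genes, 16 were in use, 15 of them 2-fold higher and 0 lower, with a median log2 ratio of 1.88 against -0.13 over all genes in use. Of 26 division genes, 21 of 23 in use were 2-fold higher (median 1.68), and of 23 genes of haem synthesis and iron, 12 of 17 (median 1.58). Of 9 mesenchymal genes, 2 of 9 were 2-fold lower (median -0.74), and without Col1a1, which the rule limited, 2 of 8 (median -0.74), and of 7 perivascular genes, 4 of 5 (median -1.16). Of 12 stress genes that tissue dissociation is known to induce, 11 were in use and all of these were below 0, with 3 of them 2-fold lower and a median of -0.92, while 58.5% of all genes in use were below 0. Their summed level was 3984 and 6963 CPM in the globin-high cells, and 5791 and 7760 in all filtered cells, with Fos the most abundant of them there. The part of sample handling in the ratios was not tested. The largest ratios among genes with 50 or more UMIs were Gata1, the master factor of the erythroid line, at 2.49 (1.85 to 3.18), the erythroid claudin Cldn13 at 2.44, Apol11b at 2.42, the replication licensing inhibitor Gmnn at 2.30 and the spindle protein Ska1 at 2.22, followed by the ankyrin Ank1, the adhesion molecule Icam4, the mitotic kinase Aurka, Fn3k and Btnl10 at 2.12 to 2.20. The most lowered were Mustn1 at -2.48, the matrix gene Abi3bp at -2.03, the caveolar protein Cav1 at -1.97, Col14a1 at -1.93 and osteocalcin, Bglap, at -1.91, followed by Lpl, Lama2, Mfap5, Vav3 and Igfbp6 at -1.86 to -1.76. The limit for genes in use could be met in 1 library alone, as Gata1 met it in Lipo-Clo, with 93 UMIs against 26 in Lipo-PBS. Such a limit favours genes that are high in 1 library, so these ratios and 2-fold counts are a description.

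In core-positive cells 72 (2.08%) of 3455 genes in use were 2-fold higher and 315 (9.12%) 2-fold lower. All 10 stress genes in use there were below 0, 4 of them 2-fold, against 53.1% of all genes in use below 0. The list median was -0.86 against -0.05 over all genes. The erythroid stage cells were chosen by their core genes in both libraries, so the core values that follow are a description. Of 2284 genes in use there, 48 (2.10%) were 2-fold higher and 105 (4.60%) 2-fold lower in Lipo-Clo, and with doublet calls left out 106 and 133. All 18 core genes were in use and 0 passed 2-fold, with a median of 0.04 against 0.05 over all genes, and of -0.097 with doublet calls left out. Ahsp had a log2 ratio of 0.05 (0.00 to 0.10), Klf1 of 0.06 (-0.29 to 0.41) and Gata1 of 0.38 (-0.32 to 1.14), the last of these against 2.49 in all globin-high cells. Of the 26 division genes, 24 were in use and 20 lay above 0, as did 54.2% of all genes in use. Of these 1, the helicase gene Mcm2, passed 2-fold at 1.56 (0.49 to 2.84) on 60 and 8 UMIs. With 8 UMIs in 159 Lipo-PBS cells, Mcm2 was in use only through Lipo-Clo, so its pass is partly set by that limit. The median of the division list was 0.30, with Tubb5, a tubulin, at 0.70 (0.52 to 0.89) and the histone variant H2az1 at 0.68 (0.58 to 0.79). The late erythroblast and reticulocyte list lay the other way. All 14 of its genes in use were below 0, against 45.8% of all genes in use, with a median of -0.43, and Bpgm passed 2-fold at -1.14 (-1.35 to -0.92). Of the 14 clearance genes in use, 13 were below 0, with Ube2o, the ubiquitin enzyme that clears ribosomes in reticulocytes, at -1.28 (-1.79 to -0.77). Of 34 nuclear-coded genes of oxidative phosphorylation in use, 32 were above 0 and 0 passed 2-fold, with a median of 0.28. Above 0 were 31 of 34 in dividing, 17 of 34 in intermediate and 16 of 28 in late cells. All genes in use were above 0 in 46.6%, 51.6% and 48.1%.

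The mixture of stages was compared beside these ratios. Dividing cells made up 38.7% (33.4 to 44.2) of the Lipo-Clo and 28.9% (22.0 to 36.6) of the Lipo-PBS stage cells, intermediate cells 29.6% and 35.2%, and late cells 31.7% and 35.8%. The dividing share was 9.74 percentage points higher in Lipo-Clo (0.694 to 18.1, Newcombe interval), an interval just above 0. As a log2 ratio the same difference was 0.42 (-0.08 to 0.94), an interval that holds 0, so its reading depends on the measure. The differences of the intermediate share, -5.61 points (-14.6 to 3.06), and of the late share, -4.13 points (-13.2 to 4.62), had intervals that hold 0. Weighted to 1 common mixture of stages, the libraries differed by a median of -0.07 in the late list, -0.06 in the clearance list and 0.16 in the division list. Within single stages the late list had medians of -0.41 in dividing, -0.16 in intermediate and 0.00 in late cells. The division list had medians of -0.07 in dividing, 0.50 in intermediate and 0.51 in late cells. In dividing cells 9 of its 26 genes in use lay above 0, against 46.6% of all genes in use. Bpgm kept 1 direction, at -1.68 (-2.47 to -0.89), -0.88 (-1.22 to -0.55) and -0.31 (-0.61 to -0.00). Division gene cells were 60.8% (56.1 to 65.3) and 46.0% (40.3 to 51.7) of core-positive cells but 66.2% (60.8 to 71.2) and 60.4% (52.3 to 68.0) of stage cells, where the intervals overlap.

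Among genes with 50 or more UMIs and 1 direction in all 3 stages, those that differed between the libraries' stage cells included genes of other lineages, and the examples here were chosen after their values were seen. Kctd14 had a log2 ratio of 2.24 (0.79 to 4.17) on 48 and 4 UMIs, and the neutrophil genes S100a9 and S100a8 1.61 (1.10 to 2.17) and 1.42 (0.66 to 2.28). S100a9 was detected in 57.0% and 10.9% of dividing cells and in 53.2% and 17.8% of mesenchymal cells over the Col1a1 limit, so it differed in the same direction in cells that are not erythroid. At the other end, the myelin gene Pmp22 stood at -4.40, with 154 of its 174 Lipo-PBS UMIs in the intermediate stage, where it was found in 10.7% of cells. Cd9 followed at -2.39 (-2.79 to -2.004), with 145 of its 171 Lipo-PBS UMIs in that stage, and the metallothionein Mt1 had -1.74 (-2.07 to -1.42), with 114 of 183 in it, but -0.59 (-1.22 to 0.06) in dividing cells, an interval that holds 0. The intermediate stage of Lipo-PBS held 56 cells, the largest with 22905 UMIs against an upper quartile of 5859. The intervals do not cover UMIs that sit together in few cells. Further down the order, H1f5, a linker histone made during replication, had -1.38 (-1.53 to -1.24) on 808 and 829 UMIs, and -1.85 in dividing cells on 777 and 790 UMIs. The histone H2ac22 had -1.49 (-1.71 to -1.27), and Utrn, Apoe, Calcrl, Sptbn1 and others with fewer UMIs lay between Cd9 and these histones. Mitochondrial genes took 0.148% of stage cell UMIs in Lipo-Clo and 0.540% in Lipo-PBS, as in the whole libraries.

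Interferon-induced genes and the erythroblast side of the island were also read in the stage cells. Isg15 had a log2 ratio of 0.28 (0.14 to 0.42) and stood at 9689 and 4694 CPM in late cells, where the ratio was 1.05 (0.81 to 1.28), while Rsad2 stood at -0.68 on 204 and 128 UMIs, so the 4 genes of that list in use, with a median of 0.18, did not share a direction over all stage cells. In dividing cells 4 of 5 genes in use lay above 0, against 46.6% of all genes in use (medians 0.39 and -0.07). In intermediate cells 1 of 4 did, against 51.6% of all genes in use (medians -0.27 and 0.03). In late cells alone the 4 genes in use lay above 0, as did 48.1% of all 1060 genes in use there, and 2 of them were 2-fold higher against 7.92% of all genes, with a median of 0.64 against -0.04. The 3 neutrophil genes in use in late cells were also all 2-fold higher (median 2.06), 2 of them with intervals clear of 0. In the same cells the 7 stress genes in use lay below 0, and 5 of them were 2-fold lower against 14.1% of all genes, with a median of -1.16, though the intervals of only 2 of the 5 lay below 0. In intermediate cells 5 of 9 stress genes lay above 0, as did 51.6% of all genes in use (list median 0.02). There 2 were 2-fold higher against 238 of 2374 genes, or 10%. In dividing cells 7 of 9 lay below 0, as did 53.4% of all genes in use (list median -0.19). There 0 of 9 passed 2-fold, where 8.98% of all genes were higher and 15.6% lower. In both stages 0 stress genes passed 2-fold with an interval clear of 0. Over all stage cells 6 of 8 lay below 0 (median -0.28), against 45.8% of all genes in use. Of 8 genes with which erythroblasts hold to the island macrophage or respond to it, 5 were in use over all stage cells. Of these 0 passed 2-fold, where 2.10% of all genes in use were higher and 4.60% lower. Below 0 lay 4 of the 5, against 45.8% of all genes in use (list median -0.14). Icam4, the adhesion molecule that binds macrophage integrins, had 0.30 (-0.01 to 0.62), Cd47, which restrains engulfment, -0.10 (-0.30 to 0.09), Itga4 -0.31 (-0.86 to 0.25) and Itgb1 -0.63 (-1.06 to -0.20).

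In cells below the core limit 3790 genes were in use, 39 (1.03%) 2-fold higher and 139 (3.67%) 2-fold lower in Lipo-Clo. Holding few core genes was what chose these cells in both libraries, so of the core list only 3 genes were in use there, with a median of 0.30 against -0.05 over all genes, a description. Of the division list 3 of 8 genes in use were 2-fold higher, with a median of 0.92, and of the neutrophil list 2 of 4, with a median of 1.06.

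**Figure D5:**
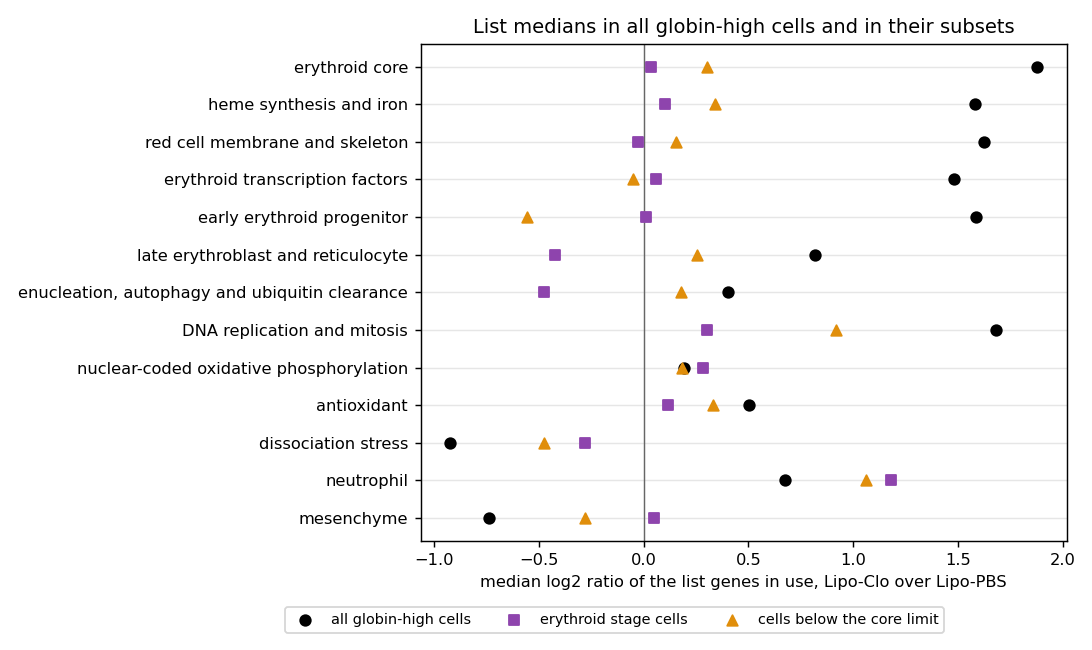
Points give the median log2 ratio, Lipo-Clo over Lipo-PBS, of the genes in use of each list, in all globin-high cells, in the erythroid stage cells and in the cells below the core limit. The erythroid core stands at 1.88 in all globin-high cells and at 0.04 in stage cells, and its values in the stage cells and below the limit come from cells that were chosen by core genes.

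The cells with under 200 genes ran against the stage cells. They were 5.00% of the deposited Lipo-Clo and 7.74% of the deposited Lipo-PBS cells, with a log2 ratio of -0.63 (-0.80 to -0.46), while stage cells over the same denominator had 1.10 (0.82 to 1.38). Those of them with at least 3 core genes, 135 and 119 cells, had a ratio of 0.23 (-0.14 to 0.59), an interval that holds 0. In all cells with under 200 genes, late erythroblast and reticulocyte genes stood at 83160 and 92726 CPM, above the 40794 and 40435 of the late stage. Ahsp stood at 8853 and 2812 CPM in them, below the late stage. Whether the mice were bled or the tissue rinsed before dissociation is not given in the sources used here, and circulating red cells could not be told apart from those of the tissue.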

How the data were processed

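Raw UMI counts of 34285 genes in single cells were deposited, without normalization. The file headers name Cell Ranger 8.0.0, and the submitters' processing notes name Cell Ranger 3.1.0 and Seurat 3.1.1. The cells and gene lists were chosen with earlier results of these data known. PN15.5 is the age the labels give. Named genes were genes of the lists, the 10 genes per direction with the largest ratio among genes with at least 50 UMIs whose sign held in core-positive cells, and the 5 leading genes of each stage cluster (some genes are not reported here), while genes named within stage cells were chosen after their values were seen. Vpreb1 was not found in the files' symbols, and Atp5 genes were taken under their current symbols. Clustering used scanpy 1.11.5 with 1000 variable genes, 15 components, 15 neighbours and Leiden resolution 0.5 (leidenalg 0.10.2), without batch correction. Doublets were kept. Scrublet called 0 and 1 cells by its automatic threshold, so the 632 and 633 highest scores served as doublets in an alternative. For each set of cells the UMIs of a library were added up and divided by its UMIs other than haemoglobin. Ratios carry exact intervals for 2 Poisson counts. They were run on simulated Poisson counts with 200 changed genes, which checks the calculation only. Such counts cannot show how the intervals hold where the UMIs of a gene sit in few cells. Counts limit precision, and PCR error is not covered. edgeR 4.0.16 and DESeq2 1.42.0 gave alternative scalings only.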

Additional observations from a re-analysis of the deposited data

How the results depend on the processing

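No paired analysis was possible because a single library stands for each condition, and no library could be left out. The direction of the share of globin-high cells depended on which cells counted. Its log2 ratio of -0.61 was -0.81 with limits of 500 genes and 10% mitochondrial UMIs, -0.23 with at least 25% globin and -0.037 with at most 0.5% Col1a1, and it was reversed to 0.54 for core-positive cells and 1.06 for stage cells, alternatives chosen after seeing the data. Without the globin and Col1a1 limits, cells with at least 3 core genes were 5.98% and 5.24% of the filtered cells, with overlapping intervals.

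In the same order of 500 genes, at least 2 core genes, at least 5 and thinning to 500 UMIs, the core-positive share was 61.6%, 73.8%, 54.2% and 38.9% in Lipo-Clo and 24.4%, 43.9%, 19.2% and 12.3% in Lipo-PBS, where 25% globin gave 37.6% and 0.5% Col1a1 38.1%. The share with division genes was 82.5% and 76.2% with 1 UMI, 52.1% and 33.4% with 5, 25.7% and 15.4% after thinning, 66.2% and 60.4% in stage cells, 72.8% in Lipo-Clo with 500 genes and 52.0% in Lipo-PBS with 0.5% Col1a1.

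The 257 higher and 303 lower genes became 670 and 1506 among all genes with at least 20 UMIs, 518 and 868 at 1.5-fold, and 31 and 128 at 1 mixture of clusters. There were 156 higher genes with 0.5% Col1a1 and 72 in core-positive cells, and 503 lower genes by CPM over all UMIs, where 73.2% of the genes past 2-fold were lower against 54.1% and the median of all genes was -0.32 against -0.13. Cells below the core limit gave 39 and 139, stage cells 48 and 105, stage cells at 1 mixture 51 and 112, with TMM factors 38 and 119, with totals without mitochondrial and ribosomal protein genes 52 and 96, and without doublet calls 106 and 133. Of 13 of the 14 erythroid and state lists, 12 had a median above that of all genes, against 6 in stage cells. The count in stage cells was also 6 with TMM factors and with totals without mitochondrial and ribosomal protein genes, and 2 without doublet calls.

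List medians above 0 in all globin-high cells and below 0 in stage cells included the late list at -0.43 against 0.82, the clearance list at -0.47 against 0.40, the island list at -0.14 against 0.37, and the membrane list at -0.028, at -0.080 with TMM factors and at -0.21 without doublet calls, the core list at -0.016 with TMM factors and at -0.097 without doublet calls, the early progenitor list at -0.042 with TMM factors, and haem synthesis at -0.053 and transcription factors at -0.021 without doublet calls. TMM factors move all genes of a comparison alike, so a sign that changed with them alone says nothing about a list. Transcription factors stood at -0.050 below the core limit. The causes were not tested. With few stage cells, 46 to 128 per stage and library, differences under the printed intervals were not detectable.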
